A study of Mus musculus with 12 samples.

Results

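A set of 10 genes of the Wnt pathway was followed in cultured murine mesenchymal cells with and without knockdown of Klf4. They were the ligands Wnt2, Wnt5a and Wnt11, the secreted antagonists Sfrp1, Sfrp2, Dkk2, Dkk3 and Wif1, and the transcriptional readouts Axin2 and Lef1. They were taken by gene symbol from the deposited tables, in which all 10 members had a row among 52636 genes. Polyadenylated RNA was sequenced from 12 libraries, 3 in each of 4 groups, and the question was which transcripts depend on KLF4 in smooth muscle cells and in PDGFR-β+ cells of the lung. The first cell type was commercial primary murine airway smooth muscle cells (SMCs), which the labels place in the trachea in one field and in the lung airway in another. The second was PDGFR-β+ cells of the lung, labelled as C57BL/6 mice that were 12 weeks old. The study's methods describe such cells as sorted by the Zs reporter from tamoxifen-induced Pdgfrb-CreERT2, ROSA26R(Zs/+) mice, whereas the labels of these libraries give a wild-type genotype and no reporter. In each cell type one group received scrambled RNA (Scr) and the other received siRNA against Klf4 (siKlf4), at 50 nM for 6 h, and all cells were then kept for 72 h in a supplemented medium made for SMCs. Several siRNA suppliers and transfection reagents are named in the methods, and the number of animals behind a library is not given in the sources used here. The cells were therefore expanded in culture and do not stand for freshly isolated tissue, and the SMCs come from a single commercial source.

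Wnt proteins are secreted, lipid-modified ligands that bind Frizzled receptors together with co-receptors. In the canonical branch they stop the destruction of β-catenin, which then works with TCF and LEF factors in the nucleus, whereas Wnt5a and Wnt11 are known mainly for branches that do not need β-catenin, such as planar polarity and calcium signaling. SFRP proteins and WIF1 bind the ligand outside the cell, DKK2 acts on the LRP co-receptors, DKK3 is a divergent family member with a less certain role in Wnt signaling, Axin2 is a widely used feedback target, and LEF1 is both a nuclear factor and a target. In the lung, mesenchymal Wnt2, together with Wnt2b, is needed for specification of the foregut endoderm, Wnt5a is made by fibroblasts and smooth muscle, and Axin2 marks mesenchymal progenitor cells.

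KLF4 is a zinc finger factor of a family that binds CACCC-type boxes, and the sequence before the start site is shown for the members whose level changed in SMCs and for which the RefSeq table (GRCm38.p6) had an entry that begins at the annotated gene start. Of the 10 members, 7 had an entry, and Wnt5a, Sfrp1 and Dkk3 had none. Each sequence covers the 250 bases before the start, is written 5′ to 3′ on the strand of the gene, and has capitals where CACCC or its reverse complement GGGTG, or CTTTGA or its reverse complement TCAAAG, was found. The last pair is a core of the TCF and LEF site. The windows are chr7:98834862-98835111 for Wnt11, chr11:108920099-108920348 for Axin2, chr3:83766071-83766320 for Sfrp2 and chr3:132085042-132085291 for Dkk2, all on the forward strand.
Wnt11: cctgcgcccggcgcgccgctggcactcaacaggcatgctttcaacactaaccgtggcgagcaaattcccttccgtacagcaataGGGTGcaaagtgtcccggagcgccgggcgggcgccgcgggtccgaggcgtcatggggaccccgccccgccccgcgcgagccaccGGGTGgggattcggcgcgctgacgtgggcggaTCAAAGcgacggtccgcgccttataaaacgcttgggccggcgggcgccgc
Axin2: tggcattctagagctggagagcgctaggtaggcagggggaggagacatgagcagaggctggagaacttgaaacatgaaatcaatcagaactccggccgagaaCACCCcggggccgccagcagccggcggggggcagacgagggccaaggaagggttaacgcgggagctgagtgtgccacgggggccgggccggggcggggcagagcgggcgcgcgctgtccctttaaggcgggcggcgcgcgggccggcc
Sfrp2: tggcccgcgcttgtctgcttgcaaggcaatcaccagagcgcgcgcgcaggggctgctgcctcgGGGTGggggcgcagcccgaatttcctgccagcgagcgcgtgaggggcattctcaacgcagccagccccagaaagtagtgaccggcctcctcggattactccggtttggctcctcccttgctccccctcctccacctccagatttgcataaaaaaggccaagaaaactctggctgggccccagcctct
Dkk2: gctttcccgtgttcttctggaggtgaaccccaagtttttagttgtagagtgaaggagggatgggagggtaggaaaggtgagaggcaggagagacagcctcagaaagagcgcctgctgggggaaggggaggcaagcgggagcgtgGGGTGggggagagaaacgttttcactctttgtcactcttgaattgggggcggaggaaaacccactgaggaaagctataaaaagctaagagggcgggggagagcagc
The Wnt11 window held 2 matches to CACCC and 1 to CTTTGA, and each of the other windows shown held 1 match to CACCC. The windows of Wnt2 and Wif1 and those at all 4 starts of Lef1 held CACCC as well. The Lef1 window at chr3:131156044-131156293 also held 2 matches to CTTTGA. Across 32851 promoter windows of the same length, 52.0% held CACCC and 13.8% held CTTTGA on either strand. The longer box CCACACCC, which contains CACCC, was in 3.20% of all windows and in none of those of the members. A match describes letters in this window and is not evidence of binding.

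Klf4 itself stood at 89.6, 96.3 and 95.03 TPM (a level scaled for transcript length and library total) in the 3 SMC Scr libraries and at 26.5, 16.3 and 18.8 TPM in the SMC siKlf4 libraries. In PDGFR-β+ cells it stood at 144, 146 and 134 TPM with Scr and at 12.3, 13.8 and 12.8 TPM with siKlf4. The groups were far apart in both cell types, with 21.9% of the Scr mean left in SMCs and 9.16% left in PDGFR-β+ cells. The study states a target depth, but the depth that each library reached is unknown, since TPM fixes each total at 1000000. Among the SMC libraries, 1 with Scr and 1 with siKlf4 were deposited without a number. These 2 unnumbered libraries deviated from their group means together (r = 0.361 across genes, which are not independent replicates), and so, less strongly, did the SMC libraries numbered 2 (0.185) and those numbered 3 (0.199). For the members tested in SMCs, results are therefore also given from the 4 numbered libraries. Where a call differs, they are also given from a fit of all 6 SMC libraries with a term for unnumbered against numbered. That fit called 40.1% of all genes. Other pathway genes are given from all 6 SMC libraries. Of their calls in SMCs and for the difference between cell types, 43 held in the numbered libraries alone and 7 were lost.

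Some markers of cell types moved with the treatment and others did not. The summed level of 8 smooth muscle markers was 1495 to 2284 TPM in SMC Scr and 3411 to 4174 TPM in SMC siKlf4, with 6 of 7 tested markers higher. It was 5551 to 6408 TPM in PDGFR-β+ Scr and 4708 to 5003 TPM in PDGFR-β+ siKlf4. There 3 of 7 tested markers were higher (Myh11, Smtn and Lmod1) and 3 lower (Acta2, Tagln and Des). Des reached a mean of 1 TPM there only through its Scr libraries (2.08 TPM, against 0.756 TPM with siKlf4). Of all genes tested, 28.5% were called in SMCs (15.6% higher) and 40.6% in PDGFR-β+ cells (25.3% higher and 15.3% lower). Acta2, the smooth muscle actin gene, had a higher level in PDGFR-β+ Scr cultures (mean 4369 TPM) than in SMC Scr cultures (1373 TPM). Myocd, the defining smooth muscle coactivator, was near 0 in both. The sum of 3 mesothelial markers was 17.0 to 26.4 TPM in SMC Scr against 6.85 to 9.75 TPM in SMC siKlf4. In PDGFR-β+ cells it was 11.1 to 13.3 TPM with Scr against 1.85 to 1.91 TPM with siKlf4. Most of it was Msln except in PDGFR-β+ siKlf4, where Upk3b (mean 1.00 TPM) was above Msln (0.663 TPM). Treatment groups overlapped for Upk3b in SMCs and for Wt1 in PDGFR-β+ cells (means 0.226 and 0.219 TPM). The 7 macrophage markers summed to 29.0 to 30.1 TPM in PDGFR-β+ Scr and 18.8 to 23.0 TPM in PDGFR-β+ siKlf4, with Ptprc and Adgre1 near 0, and 7 epithelial markers summed to at most 1.30 TPM in any library. The 6 endothelial markers summed to 1.34 to 2.65 TPM in SMC Scr and 3.54 to 4.02 TPM in SMC siKlf4. In PDGFR-β+ cells they summed to 15.3 to 18.4 TPM with Scr and 14.1 to 16.2 TPM with siKlf4. Most of each sum was Kdr except in SMC Scr, where Kdr (mean 0.663 TPM) and Tek (0.611 TPM) were alike. Pecam1, Cdh5 and Tie1 were near 0 in all groups. Pdgfrb, the gene that defines the second cell type, had a mean of 447 TPM in PDGFR-β+ Scr and 214 TPM in SMC Scr. Col1a1, Cspg4 and Rgs5 were also higher in PDGFR-β+ Scr, and Gli1 was near 0 in both. Pdgfra (417 against 169 TPM), Col1a2 (1749 against 1482 TPM) and Tcf21 (15.4 against 1.10 TPM) were instead higher in SMC Scr. The sums of the 8 PDGFR-β+ mesenchyme markers were lower with siKlf4 in SMCs (3326 to 3604 against 2757 to 2898 TPM). They overlapped in PDGFR-β+ cells (3729 to 4405 against 3045 to 4061 TPM). The part of these cell types in the results below was not tested, and in bulk RNA fewer cells of a type and less RNA per cell cannot be told apart.

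In the Scr libraries the 10 genes covered a wide range of levels, and the antagonists Sfrp1 and Dkk3 were at the top in both cell types. The other antagonists were spread over the order, with Wif1 at rank 9 in both. In SMCs the order of mean levels was Sfrp1 (1705 ± 149 TPM, SD, n = 3), Dkk3 (182 ± 4.90), Sfrp2 (32.8 ± 2.96), Wnt5a (12.4 ± 2.42), Wnt11 (5.01 ± 0.574), Axin2 (1.58 ± 0.341), Dkk2 (1.22 ± 0.0862), Wnt2 (0.801 ± 0.374), Wif1 (0.364 ± 0.0657) and Lef1 (0.129 ± 0.0243). The ranges of Axin2 and Dkk2 overlapped, as did those of Dkk2 and Wnt2, and all other neighbours in this order were apart. In PDGFR-β+ cells the order was Sfrp1 (142 ± 50.2 TPM, SD, n = 3), Dkk3 (117 ± 17.0), Wnt5a (29.5 ± 11.2), Dkk2 (20.5 ± 1.99), Wnt2 (2.32 ± 0.513), Wnt11 (1.13 ± 0.642), Axin2 (0.627 ± 0.0986), Sfrp2 (0.246 ± 0.0600), Wif1 (0.236 ± 0.180) and Lef1 (0.0742 ± 0.106). Here Sfrp1 overlapped Dkk3, Wnt5a overlapped Dkk2, Wnt11 overlapped Axin2, and Sfrp2, Wif1 and Lef1 overlapped in turn.

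The cell types were set side by side as a description without a test, since each has a table of its own. Of the 10 members, 8 had Scr levels that did not overlap between the cell types, 5 of them higher in SMCs and 3 lower. Among all genes tested in both cell types, 57.5% did not overlap, 29.2% being higher in SMCs and 28.3% lower. Of the 8, Wnt2, Axin2 and Sfrp2 were not tested in both cell types, so the count and the share cover unlike sets. Sfrp2 differed most, with a mean 134 times that of PDGFR-β+ cells, followed by Sfrp1 at 12.0 times, Wnt11 at 4.44 times, Axin2 at 2.52 times and Dkk3 at 1.55 times. In the other direction, the PDGFR-β+ mean was 16.7 times the SMC mean for Dkk2, 2.89 times for Wnt2 and 2.38 times for Wnt5a. The SMC cultures thus had the higher levels of both SFRP genes and the PDGFR-β+ cultures the higher level of Dkk2.

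**Figure D1:**
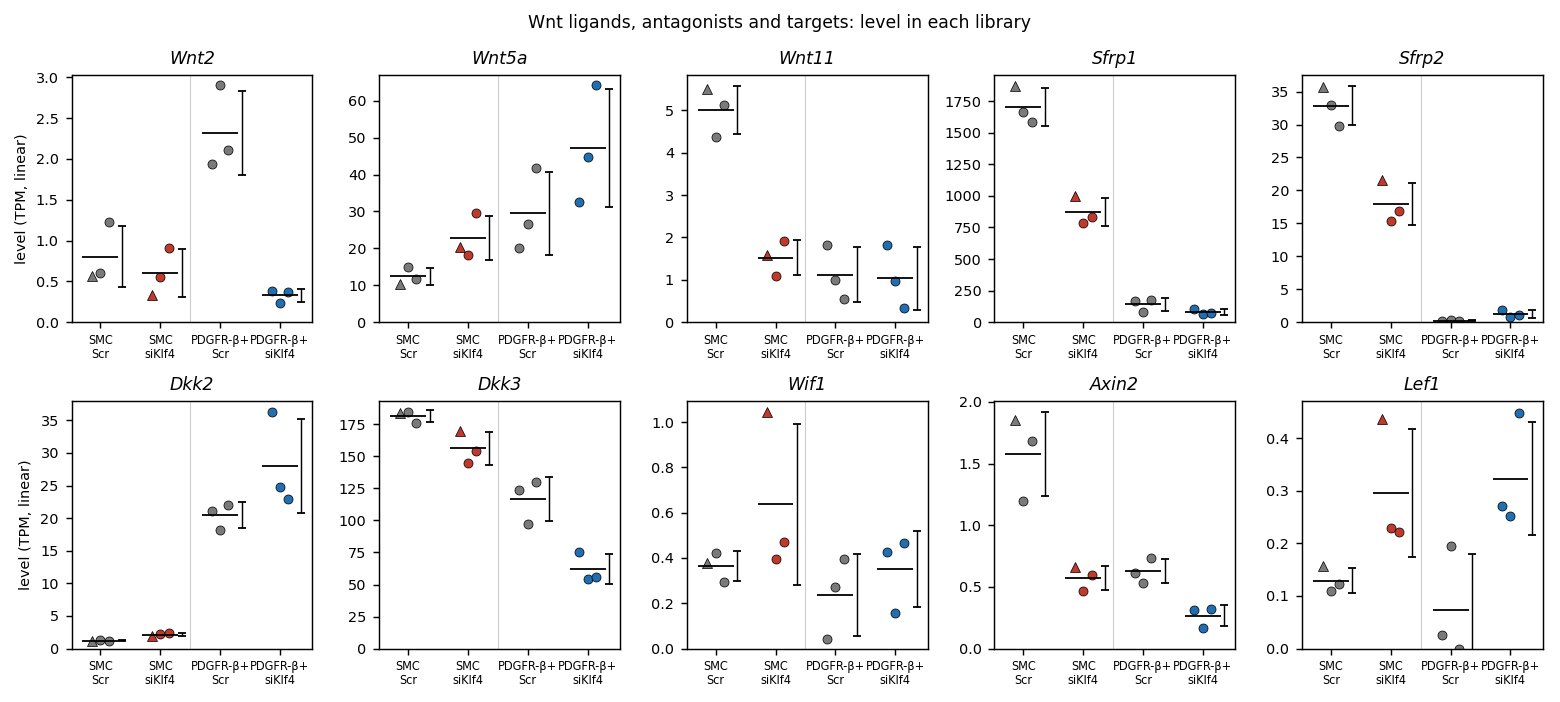
Level of each of the 10 Wnt genes in every library (TPM, linear axis from 0, a scale of its own for each gene), for Scr and siKlf4 in SMCs and PDGFR-β+ cells. Points are libraries (triangles are the unnumbered SMC libraries), horizontal lines are means and vertical bars are ± SD, cut at 0. Wnt11 and Sfrp1 sit apart by treatment in SMCs, and Wnt2 and Dkk3 in PDGFR-β+ cells.

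With Klf4 knockdown in SMCs, Sfrp1, Sfrp2, Wnt11 and Axin2 fell and Wnt5a and Dkk2 rose. Of the 7 members tested, 6 thus passed the threshold (limma on log2(TPM + 1), Benjamini-Hochberg adjusted p under 0.05 over all genes that averaged 1 TPM or more, two-sided), 2 higher and 4 lower. The share of all 13709 genes called was 28.5%, with 15.6% higher and 12.9% lower. The members were chosen with earlier results of these data known, so these counts describe the set and cannot test it. Axin2 passed the filter only through its Scr libraries, and without it 5 of 6 members were called, 2 higher and 3 lower, with a median log2 fold change of -0.53 against 0.017 over all genes. Wnt2, Lef1 and Wif1 were under the filter. Over all 10 members, 8 had treatment groups that did not overlap, 3 higher and 5 lower, against 47.1% of all genes tested (25.6% higher and 21.5% lower). Of the 8, Lef1 (higher) was under the filter that the share of all genes keeps to.

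With knockdown in PDGFR-β+ cells, Wnt2 and Dkk3 fell and no member rose past the threshold. These were 2 of 6 members tested, where 40.6% of 13694 genes were called, 25.3% higher and 15.3% lower, so the share of members called was not above that of all genes. Wnt2 passed the filter only through its Scr libraries, and without it 1 of 5 members was called, with a median log2 fold change of -0.082 against 0.097 over all genes. Axin2, Lef1, Sfrp2 and Wif1 were under the filter. Treatment groups did not overlap for 6 of the 10 members, 3 higher and 3 lower, against 53.8% of all genes tested (33.9% higher and 19.8% lower). Of the 6, Sfrp2 and Lef1 (higher) and Axin2 (lower) were under the filter, so the count and the share cover unlike sets. Scaling by the median ratio to a reference library moved the log2 values of all genes in this cell type by 0.111, and turned the split of all calls from 3461 higher and 2098 lower to 2639 higher and 2977 lower. It left the same number of members called, both lower.

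**Figure D2:**
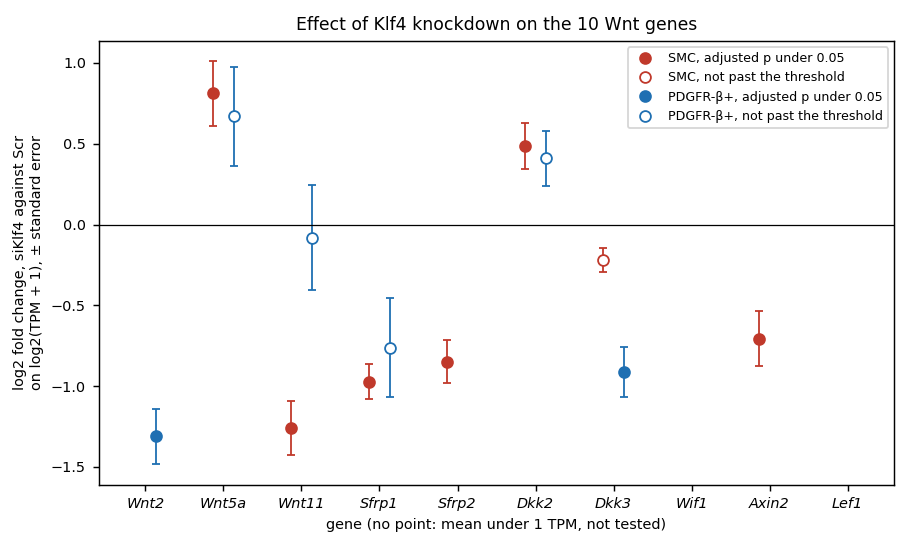
Log2 fold change of siKlf4 against Scr on log2(TPM + 1), ± standard error, for the members tested in either cell type (SMCs in red, PDGFR-β+ cells in blue, 3 libraries per group). Filled points passed an adjusted p of 0.05 in limma, and a gene without a point had a mean under 1 TPM. Wnt11 was at -1.26 in SMCs and -0.082 in PDGFR-β+ cells, whereas Dkk3 was at -0.22 and -0.91.

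Among the ligands, Wnt11 (chromosome 7, 98835112 to 98855195, forward strand, mm10) changed in SMCs. Its level was 5.51, 4.38 and 5.13 TPM in the SMC Scr libraries and 1.59, 1.08 and 1.91 TPM in the SMC siKlf4 libraries. Every siKlf4 library was below every Scr library, with 30.5% of the Scr mean left. The log2 fold change was -1.26 ± 0.17 (SE, adjusted p = 0.00310 in limma), and the numbered libraries alone gave -1.22 ± 0.22 (adjusted p = 0.0208). Wnt11 was in PDGFR-β+ cells at 1.82, 1.01 and 0.553 TPM with Scr and at 1.82, 0.963 and 0.338 TPM with siKlf4. Both groups covered the same low range there, and the log2 fold change was -0.082 ± 0.33 (adjusted p = 0.863). The SMC change minus the PDGFR-β+ change was -1.18 ± 0.39 (adjusted p = 0.0375 for the interaction term over 12 libraries), and it was -1.14 (adjusted p = 0.101) with the numbered SMC libraries alone. The call of this difference held in 3 of 10 fits that left out 1 library and could be tested. It was lost (adjusted p = 0.0565 to 0.0841) without either unnumbered SMC library, SMC Scr library 3, SMC siKlf4 library 2, PDGFR-β+ Scr library 2 or 3, or PDGFR-β+ siKlf4 library 2.

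Wnt2 (chromosome 6, 17988940 to 18030585, reverse strand) changed in PDGFR-β+ cells. It was at 1.94, 2.90 and 2.11 TPM in PDGFR-β+ Scr and at 0.383, 0.231 and 0.370 TPM in PDGFR-β+ siKlf4. All siKlf4 libraries lay far below the lowest Scr library, with 14.2% of the Scr mean left. The log2 fold change was -1.31 ± 0.17 (adjusted p = 0.00102 in limma). Wnt2 passed the filter in PDGFR-β+ cells only through its Scr libraries. In SMCs Wnt2 was at 0.569, 0.601 and 1.23 TPM with Scr and at 0.331, 0.558 and 0.911 TPM with siKlf4, and these groups overlapped. It was tested in SMCs only when no filter was used, with a log2 fold change of -0.17 (adjusted p = 0.644), and the SMC change minus the PDGFR-β+ change was then 1.14 (adjusted p = 0.00949, where 18.6% of all genes were called). At these low levels the added count of 1 TPM makes the fold smaller than the ratio of means.

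Wnt5a (chromosome 14, 28504750 to 28527448, forward strand) was the ligand gene with the highest level in all groups. It was at 10.3, 15.0 and 11.8 TPM in SMC Scr and at 20.5, 18.2 and 29.5 TPM in SMC siKlf4. The groups did not overlap and the siKlf4 mean was 1.83 times the Scr mean (log2 fold change 0.81 ± 0.20, adjusted p = 0.0242 in limma). The numbered libraries alone gave 0.75 ± 0.26 (adjusted p = 0.0923), the term for unnumbered libraries gave 0.81 ± 0.19 (adjusted p = 0.0209), and the call held in 3 of 6 fits that left out 1 library (without the unnumbered Scr library the adjusted p was 0.0622, without Scr library 3 it was 0.0640, and without siKlf4 library 3 it was 0.0559). In PDGFR-β+ cells Wnt5a was at 20.1, 26.6 and 41.8 TPM with Scr and at 32.5, 44.7 and 64.4 TPM with siKlf4. The spread within each group was wide, the groups overlapped and the change of 0.67 ± 0.31 did not pass (adjusted p = 0.118), although it passed without Scr library 3 (adjusted p = 0.0411). No difference in change between the cell types was detectable (0.14 ± 0.41, adjusted p = 0.821). The antisense gene Gm2670 overlaps Wnt5a and reached at most 0.582 TPM.

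The make-up of the ligand transcripts moved with these genes. The summed level of all 19 Wnt ligand genes was 32.9 ± 2.22 TPM in SMC Scr and 34.4 ± 7.73 TPM in SMC siKlf4 (SD, n = 3), and it was 43.9 ± 10.4 and 55.8 ± 14.8 TPM in PDGFR-β+ cells, with overlapping ranges in both. Wnt5a made up 37.7% ± 6.80 of that sum in SMC Scr and 65.7% ± 2.43 in SMC siKlf4, and 65.8% ± 9.74 and 83.5% ± 7.23 in PDGFR-β+ cells. Its share was higher in each siKlf4 library than in any Scr library of the same cell type. Wnt11 went from 15.3% ± 2.24 to 4.41% ± 0.586 of the sum in SMCs, and Wnt2 from 5.48% ± 1.74 to 0.615% ± 0.239 in PDGFR-β+ cells. The other ligands that passed the filter were Wnt9a, Wnt5b and, in SMCs, Wnt16. Wnt9a had means of 4.93 and 5.00 TPM in SMCs and 6.36 and 5.18 TPM in PDGFR-β+ cells, and Wnt5b passed no test. Wnt16 fell in SMCs from 4.74 to 1.38 TPM (log2 fold change -1.22, adjusted p = 0.0232 in limma). Its SMC Scr levels were uneven, with 7.45 TPM in the unnumbered library and 3.63 and 3.14 TPM in libraries 2 and 3.

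**Figure D3:**
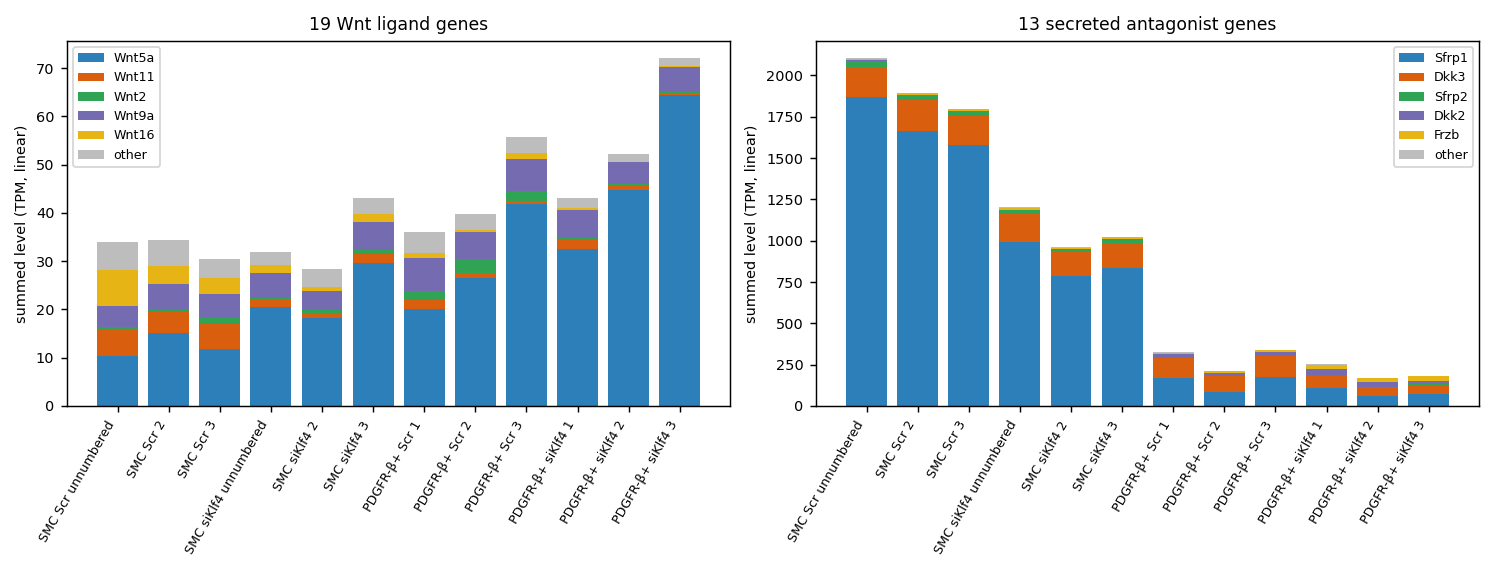
Summed level (TPM, linear axis from 0) of 19 Wnt ligand genes on the left and 13 secreted antagonist genes on the right in each of the 12 libraries, split by the leading genes. The antagonist sum was 1800 to 2105 TPM in SMC Scr against 959 to 1202 TPM in SMC siKlf4, nearly all of it Sfrp1, while the Wnt5a segment takes up a larger part of the ligand sum with siKlf4.

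Among the antagonists, Sfrp1 (chromosome 8, 23411502 to 23449632, forward strand) had the highest level of all members. It was at 1869, 1665 and 1580 TPM in SMC Scr and at 995, 784 and 834 TPM in SMC siKlf4. No siKlf4 library came near the Scr range, and 51.1% of the Scr mean was left (log2 fold change -0.97 ± 0.11, adjusted p = 0.00184 in limma), and the numbered libraries alone gave -1.003 ± 0.053 (adjusted p = 0.00283). In PDGFR-β+ cells Sfrp1 was at 167, 84.1 and 174 TPM with Scr and at 109, 62.3 and 73.4 TPM with siKlf4. Scr library 2 lay inside the siKlf4 range, and the change of -0.76 ± 0.31 did not pass (adjusted p = 0.0846). Without that library the change was -1.10 ± 0.22 (adjusted p = 0.00981), and in a single fit of both cell types the adjusted p was 0.0332. The SMC change minus the PDGFR-β+ change of Sfrp1 was -0.21 ± 0.37 and did not pass (adjusted p = 0.696).

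Sfrp2 (chromosome 3, 83766321 to 83774316, forward strand) fell in SMCs and had higher levels with siKlf4 in PDGFR-β+ cells, where it was rare. In SMCs it was at 35.8, 32.9 and 29.8 TPM with Scr and at 21.5, 15.4 and 16.8 TPM with siKlf4. The groups were apart, with 54.6% of the Scr mean left (log2 fold change -0.85 ± 0.13, adjusted p = 0.00548 in limma), and the numbered libraries gave -0.92 ± 0.089 (adjusted p = 0.00575). In PDGFR-β+ cells it was at 0.207, 0.315 and 0.215 TPM with Scr and at 1.92, 0.779 and 1.05 TPM with siKlf4. All siKlf4 libraries were higher there, but the mean was under the filter. Without a filter the change in PDGFR-β+ cells was 0.82 ± 0.19 (adjusted p = 0.0301, where 19.1% of all genes were called) and the interaction term was -1.67 ± 0.26 (adjusted p = 0.00155). The antisense gene Gm26771 overlaps Sfrp2 on the other strand and reached at most 0.755 TPM, and whether reads were assigned by strand is not given in the sources used here.

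Dkk3 (chromosome 7, 112116017 to 112159057, reverse strand) changed in PDGFR-β+ cells. It was at 123, 97.6 and 130 TPM in PDGFR-β+ Scr and at 75.6, 54.7 and 55.6 TPM in PDGFR-β+ siKlf4. The highest siKlf4 library was below the lowest Scr library, and 53.0% of the Scr mean was left (log2 fold change -0.91 ± 0.15, adjusted p = 0.00313 in limma). In SMCs Dkk3 was at 184, 185 and 176 TPM with Scr and at 170, 145 and 154 TPM with siKlf4, which do not overlap. The log2 fold change there, -0.22 ± 0.075, did not pass (adjusted p = 0.0673), whereas the numbered libraries gave -0.27 ± 0.057 (adjusted p = 0.0302) and the term for unnumbered libraries an adjusted p of 0.0263. The SMC change minus the PDGFR-β+ change was 0.69 ± 0.19 (adjusted p = 0.0144), a call that held in 12 of 12 fits that left out 1 library, and the value was 0.64 (adjusted p = 0.0521) with the numbered SMC libraries alone. Dkk3 was thus lower with siKlf4 in every library of both cell types, and by more in PDGFR-β+ cells.

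Dkk2 (chromosome 3, 132085292 to 132180304, forward strand) had the opposite sign to Sfrp1 and Dkk3. In SMCs it was at 1.15, 1.32 and 1.20 TPM with Scr and at 1.88, 2.17 and 2.31 TPM with siKlf4. The groups did not overlap and the siKlf4 mean was 1.73 times the Scr mean (log2 fold change 0.49 ± 0.14, adjusted p = 0.0393 in limma). This call was lost in each of 6 fits that left out 1 library (adjusted p = 0.0563 to 0.125) and in the numbered libraries (0.52 ± 0.16, adjusted p = 0.0764), whereas it passed with the term for unnumbered libraries (adjusted p = 0.0258). In PDGFR-β+ cells Dkk2 was at 21.2, 18.2 and 22.0 TPM with Scr and at 36.2, 24.8 and 23.0 TPM with siKlf4, also without overlap. The change of 0.41 ± 0.17 did not pass there (adjusted p = 0.0908), it passed in a single fit of both cell types (adjusted p = 0.0470), and the interaction term was 0.075 ± 0.21 (adjusted p = 0.818).

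Wif1 (chromosome 10, 121033960 to 121100650, forward strand) stayed low in all groups. It was at 0.376, 0.422 and 0.293 TPM in SMC Scr and at 1.04, 0.396 and 0.469 TPM in SMC siKlf4. A single library, the unnumbered one, set the higher siKlf4 mean. In PDGFR-β+ cells it was at 0.0402, 0.273 and 0.395 TPM with Scr and at 0.424, 0.159 and 0.467 TPM with siKlf4, and no change was detectable at this level in either cell type (adjusted p = 0.414 and 0.592 without a filter).

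Summed over 13 secreted antagonists, the level was 1933 ± 156 TPM in SMC Scr and 1061 ± 126 TPM in SMC siKlf4, and 293 ± 69.8 and 202 ± 45.1 TPM in PDGFR-β+ cells (SD, n = 3). The ranges of the sums were apart in SMCs and overlapped in PDGFR-β+ cells. Sfrp1 made up 88.2% ± 0.577 of the SMC Scr sum and 82.1% ± 0.636 of the SMC siKlf4 sum, and Dkk3 made up 9.43% ± 0.586 and 14.8% ± 0.569. In PDGFR-β+ cells the share of Dkk3 went from 40.6% ± 4.53 to 30.9% ± 1.23, that of Dkk2 from 7.18% ± 1.20 to 13.9% ± 1.07 and that of Frzb, a further SFRP family gene, from 3.48% ± 0.781 to 13.5% ± 2.16. Frzb rose in PDGFR-β+ cells from 9.84 to 26.5 TPM (log2 fold change 1.34 ± 0.087, adjusted p = 4.2e-05 in limma).

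The transcriptional readouts were both at low levels, and with the filter only Axin2 was tested, in SMCs, where it passed. It reached the filter there only through its Scr libraries. Axin2 (chromosome 11, 108920349 to 108950783, forward strand) was at 1.86, 1.20 and 1.68 TPM in SMC Scr and at 0.657, 0.468 and 0.598 TPM in SMC siKlf4. Every siKlf4 library was lower, with 36.3% of the Scr mean left (log2 fold change -0.71 ± 0.17, adjusted p = 0.0220 in limma). It was at 0.614, 0.536 and 0.732 TPM in PDGFR-β+ Scr and at 0.311, 0.166 and 0.324 TPM in PDGFR-β+ siKlf4, with no overlap and 42.6% of the Scr mean left. Without a filter the change in PDGFR-β+ cells was -0.36 ± 0.087 (adjusted p = 0.0345) and the interaction term was -0.34 (adjusted p = 0.170). In SMCs the call held in 2 of the 4 fits that left out 1 library and could be tested, being lost without siKlf4 library 2 (adjusted p = 0.0729) and without siKlf4 library 3 (adjusted p = 0.0623). In the numbered libraries its mean was under the filter.

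Lef1 (chromosome 3, 131110471 to 131224356, forward strand) was the member with the lowest level. It was at 0.156, 0.109 and 0.122 TPM in SMC Scr and at 0.437, 0.230 and 0.221 TPM in SMC siKlf4. In PDGFR-β+ cells it was at 0.0265, 0.196 and 0 TPM with Scr and at 0.270, 0.252 and 0.447 TPM with siKlf4. The siKlf4 libraries were the higher ones in both cell types, all of them under 0.5 TPM, but no change passed without a filter (0.19, adjusted p = 0.178 in SMCs, and 0.30, adjusted p = 0.0769 in PDGFR-β+ cells). The antisense gene Gm43352 overlaps Lef1 and reached 0.136 TPM, a level like that of Lef1 itself in the Scr libraries.

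Across the wider pathway, 31 of 66 tested genes were called in SMCs, 14 higher and 17 lower, and 29 of 62 in PDGFR-β+ cells, 19 higher and 10 lower. These shares, 47.0% and 46.8%, stand beside 28.5% and 40.6% of all genes. The lists, like the members, were chosen with earlier results of these data known, so the shares are a description without a test. Without the members the counts were 25 of 59 (12 higher, 13 lower) and 27 of 56 (19 higher, 8 lower). The median log2 fold change of the pathway genes was 0.015 in SMCs and 0.18 in PDGFR-β+ cells, against 0.017 and 0.097 over all genes. The SMC count fell to 20, 14 and 13 without Scr library 2, siKlf4 library 2 and siKlf4 library 3, respectively. The share of all genes called fell as well, to 18.5%, 16.2% and 17.1%.

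Among the 16 receptors and co-receptors, 5 of 15 tested genes changed in SMCs (2 higher, 3 lower) and 9 of 14 in PDGFR-β+ cells (6 higher, 3 lower). These shares, 33.3% and 64.3%, stand beside 28.5% and 40.6% of all genes. Ror1, a receptor tyrosine kinase for Wnt5a, fell in both, from 26.5 to 10.8 TPM in SMCs (log2 fold change -1.23) and from 3.72 to 1.41 TPM in PDGFR-β+ cells (-0.98). Ror2, its paralog, rose in both (0.32 and 0.39), and Fzd1 fell in both (-0.85 and -0.50) while Fzd5 rose in both (0.65 and 0.57). Fzd4 fell in SMCs (-0.79) and stood at 0.35 in PDGFR-β+ cells without passing (adjusted p = 0.0541 in limma). Of the ligand secretion genes, Porcn, which adds the lipid to Wnt proteins, fell in SMCs (-0.64), and Wls, the Wnt carrier, passed in neither cell type.

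Among R-spondins and genes of receptor turnover, 2 of 6 tested genes changed in SMCs (1 higher, 1 lower) and 4 of 6 in PDGFR-β+ cells (2 higher, 2 lower). The shares were 33.3% and 66.7%, against 28.5% and 40.6% of all genes. Rspo2, which strengthens Wnt signaling by sparing Frizzled receptors, rose in both cell types, from 5.34 to 10.3 TPM in SMCs (0.84) and from 8.22 to 23.0 TPM in PDGFR-β+ cells (1.37). Rspo1 fell in SMCs from 19.3 to 7.97 TPM (-1.20), Rspo3 rose in PDGFR-β+ cells (0.64), and Lgr4 and Lgr6, R-spondin receptors, fell there (-0.49 and -0.82).

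Of the 13 cytoplasmic relay genes, 6 of 13 tested changed in SMCs (5 higher, 1 lower) and 4 of 12 in PDGFR-β+ cells (3 higher, 1 lower). That is 46.2% in SMCs against 28.5% of all genes. In PDGFR-β+ cells it is 33.3%, below the 40.6% of all genes. Axin1, the scaffold of the complex that destroys β-catenin, rose in both (0.37 and 0.40). Ctnnb1, which encodes β-catenin, rose in SMCs by a log2 fold change of 0.18 (275 to 313 TPM, adjusted p = 0.0476 in limma), whereas Apc fell in PDGFR-β+ cells (-0.77). Among 8 nuclear factors, 3 of 7 tested changed in SMCs (1 higher, 2 lower) and 2 of 6 in PDGFR-β+ cells (2 higher). Their shares were 42.9% in SMCs and 33.3% in PDGFR-β+ cells, the latter again below that of all genes. Tcf7l2, a TCF factor, rose from 15.1 to 27.4 TPM in PDGFR-β+ cells (0.78).

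Feedback and target genes were called for 6 of 10 tested in SMCs (2 higher, 4 lower) and for 4 of 7 in PDGFR-β+ cells (2 higher, 2 lower). Apcdd1, an inhibitor of Wnt signaling at the membrane, fell in SMCs from 9.10 to 4.13 TPM (-0.97) and rose in PDGFR-β+ cells from 10.4 to 33.6 TPM (1.60), a difference of -2.57 ± 0.18 (adjusted p = 4.7e-06 in limma). Nkd1, an inhibitor of Dishevelled, also fell in SMCs (-0.48) and rose in PDGFR-β+ cells (1.14). In PDGFR-β+ cells it passed the filter only through its siKlf4 libraries (mean 0.948 TPM with Scr and 3.32 TPM with siKlf4). Ccnd1, the cyclin D1 gene, which many pathways besides Wnt control, rose in SMCs (0.40) and fell in PDGFR-β+ cells from 558 to 159 TPM (-1.81), and Wisp1, a matricellular target, rose in SMCs (1.27) and fell in PDGFR-β+ cells (-0.45). Among planar polarity genes, 3 of 6 tested changed in each cell type (1 higher and 2 lower in SMCs, 3 higher in PDGFR-β+ cells), with Prickle1 falling in SMCs (-0.99) and Daam2 falling in SMCs (-0.76) and rising in PDGFR-β+ cells (1.06). Of 59 pathway genes tested for a difference between the cell types, 27 were called, 9 with the larger value in SMCs and 18 with the larger value in PDGFR-β+ cells, or 45.8% against 33.0% of all genes (14.5% and 18.5% by direction). This split depended on the scaling, with 11 against 12 pathway genes after quantile normalization, and with 2412 against 2000 of all genes after median-ratio scaling where 1886 against 2411 were called before it. Among the members 2 of 5 were called, Wnt11 and Dkk3.

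**Figure D4:**
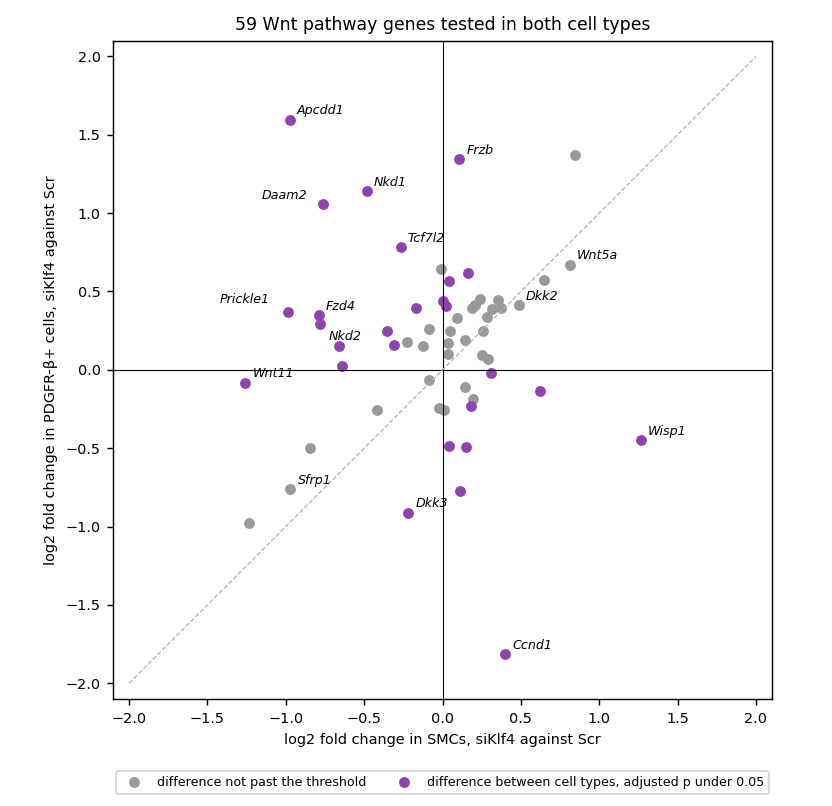
Log2 fold change of siKlf4 against Scr in SMCs (horizontal) and PDGFR-β+ cells (vertical) for the 59 Wnt pathway genes tested in both. Purple points passed the test of the difference between the cell types and grey points did not, and the dashed line marks equal change. Apcdd1, Nkd1 and Daam2 lie in the corner of lower SMC and higher PDGFR-β+ values, while Ccnd1 and Wisp1 lie in the opposite corner.

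The genes whose log2 levels across the 12 libraries were most like Wnt11, the tested member with the largest change in SMCs, were Slc4a3 (Pearson r = 0.971), Mks1 (0.966) and Ccdc159 (0.959). Those most like Wnt2, the tested member with the largest change in PDGFR-β+ cells, included Ckb (0.947) and Fbln2 (0.938). The libraries share cell types and treatments, so these values are a description without a test. Fbln2, which encodes an extracellular matrix protein, had mean levels of 715 and 659 TPM in SMC Scr and siKlf4 and 1903 and 337 TPM in PDGFR-β+ Scr and siKlf4, much like the course of Wnt2 at a far higher level.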

How the data were processed

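Bulk RNA-seq was made from 12 libraries, with poly(A) selection, strand-specific library preparation and paired-end sequencing. The authors aligned reads to mm10 with HISAT2 and GENCODE annotation (release not stated), quantified transcripts in StringTie and ballgown, and deposited TPM values for each library in a separate table for each cell type. TPM fixes each library at 1000000, so a rise of abundant genes lowers the rest, and as it holds no depth the precision rests on 3 libraries per group. The authors' own tests used DESeq2, and their counts were not analysed here. The study calls the libraries independent experiments.

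From the deposited TPM values, log2(TPM + 1) was fitted with limma 3.58.1 in R 4.3.3 (eBayes with trend) over all genes that averaged 1 TPM or more in the 6 libraries of a cell type, with Benjamini-Hochberg adjustment over all genes tested, two-sided, at 0.05. A log2 fold change here is one of log2(TPM + 1), smaller than the true change for low genes. The difference between cell types was the interaction term over 12 libraries, among genes that passed in both, and compares effects taken within each table. The fit was tested on simulated data. Named genes were all members, Klf4, pathway genes past the threshold in either cell type, 3 genes most like the member with the largest change in each cell type, and markers, of which 1 gene is not reported here. Genes of a low level outside this rule are given as values. The members and lists were chosen with earlier results of these data known. Positions are from GENCODE M21 (GRCm38, the mm10 build), and 49035 of 52636 gene identifiers matched it with version. Promoters are from RefSeq. Alternatives were another pseudocount (0.1), no filter or a minimum of 5 TPM, median-ratio and quantile scaling, no trend, a single fit, a replicate block, a term for unnumbered SMC libraries, numbered SMC libraries alone and leaving out each library. Deposited columns were matched to groups by name.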

Additional observations from a re-analysis of the deposited data

Results flagged for a closer look

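The results below passed the test of the difference itself, the interaction term of treatment and cell type in limma over 12 libraries, and values are the log2 fold change of siKlf4 in SMCs minus that in PDGFR-β+ cells. Klf4 differed by 1.19, as less of it was left in PDGFR-β+ cells. Of the members, Wnt11 differed by -1.18 and Dkk3 by 0.69. Among the other named pathway genes, the value was higher in SMCs for Fzd2 (0.64), Lgr4 (0.53), Apc (0.88), Apc2 (0.76), Gsk3b (0.33), Ctnnb1 (0.41), Wisp1 (1.71) and Ccnd1 (2.21). It was lower in SMCs for Porcn (-0.66), Fzd3 (-0.46), Fzd4 (-1.14), Fzd7 (-0.38), Fzd8 (-0.44), Frzb (-1.24), Csnk1e (-0.53), Tcf7l1 (-0.47), Tcf7l2 (-1.05), Bcl9 (-0.56), Pygo1 (-0.81), Nkd1 (-1.62), Nkd2 (-1.07), Apcdd1 (-2.57), Prickle1 (-1.36) and Daam2 (-1.82). Nkd1 passed the filter in PDGFR-β+ cells only through its siKlf4 libraries. No explanation of these differences was tested.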

How the results depend on the processing

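The limits of these data are 3 libraries per group, an unknown depth reached by each library, low levels of Lef1, Wif1, Wnt2 and Axin2 and, in PDGFR-β+ cells, of Sfrp2, and values from separate tables for the cell types. Requiring a log2 fold change of at least 1 left 1 member called in SMCs (6 in the report), 1 in PDGFR-β+ cells (2) and 1 for the difference between the cell types (2), and 5 and 7 pathway genes in SMCs (31) and PDGFR-β+ cells (29), where the share of all genes called was 3.65%, 7% and 8.96% in SMCs, PDGFR-β+ cells and for the difference. A minimum mean of 5 TPM, which tests fewer genes, left 3 members called in SMCs, 1 in PDGFR-β+ cells and 1 for the difference. The shares of all genes called were then 32.5%, 45.4% and 35.7%. Without a filter 4 members were called in PDGFR-β+ cells and 18 pathway genes in SMCs, where Wnt5a and Dkk2 no longer passed (adjusted p = 0.0636 and 0.0680). The share of all genes called without a filter was 19.1% in PDGFR-β+ cells and 11.3% in SMCs. A pseudocount of 0.1 and quantile normalization each left 1 member called for the difference, that of Wnt11 being lost (adjusted p = 0.139 and 0.0872), and the numbered SMC libraries alone left 0 (3994 genes called, 5506 at an unadjusted p under 0.05). Of all genes, 32.8%, 33.1% and 30.6% were called for the difference in these settings. A term for unnumbered against numbered SMC libraries called 7 members and 36 pathway genes in SMCs and 2 members for the difference. It called 40.1% of all genes in SMCs and 38.2% for the difference. A single fit of both cell types called 4 members in PDGFR-β+ cells, and 42.9% of all genes there. Leaving out each library in turn gave 3 to 6 members and 13 to 24 pathway genes called in SMCs, 2 to 3 and 25 to 28 in PDGFR-β+ cells and 1 to 2 members for the difference. In these fits 16.2% to 26% of all genes were called in SMCs and 30.8% to 38.6% in PDGFR-β+ cells. For the difference the share was 28.1% to 31.6%. The SMC members were 3 without the unnumbered Scr library, Scr library 3 or siKlf4 library 3.

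A fit with the replicate number as a block (2 numbered pairs in SMCs) called 3 members and 18 pathway genes in SMCs, where Wnt5a and Dkk2 did not pass (adjusted p = 0.128 and 0.133), 4 members and 36 pathway genes in PDGFR-β+ cells and 2 members for the difference. With this block 20.8% of all genes were called in SMCs, 41.2% in PDGFR-β+ cells and 29.8% for the difference. In PDGFR-β+ cells the deviations of libraries with the same number correlated at 0.0732, -0.0158 and 0.00430, and not every library correlated best with its own number, so there the samples share only a number. In SMCs the same-label pairs correlated at 0.185 and 0.199, and the unnumbered pair, which carries no number to pair by and is not in this fit, at 0.361, each above the other pairings (-0.217 to 0.0499). Signs that reversed were all of values that did not pass. Over the fits that left out 1 library, the difference for Wnt5a ranged from -0.14 to 0.39, being negative (-0.055, -0.14 and -0.094) without SMC siKlf4 library 3, PDGFR-β+ Scr library 3 and PDGFR-β+ siKlf4 library 1. That for Sfrp1 ranged from -0.39 to 0.13, being positive (0.13 and 0.015) without PDGFR-β+ Scr library 2 and siKlf4 library 1, and that for Dkk2 ranged from -0.048 to 0.27, being negative without PDGFR-β+ siKlf4 library 3. The change of Wnt11 in PDGFR-β+ cells ranged from -0.29 to 0.19, being positive without siKlf4 library 3. Other values of members kept their direction in these settings, with 18 losing the threshold when a library was left out and 11 in the other settings. The cause of these changes was not tested.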

Other observations

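Wnt4, a ligand, was under the filter in both cell types and Notum in PDGFR-β+ cells. Wnt4 was at 1.15 ± 0.301 TPM in SMC Scr and 0.314 ± 0.119 TPM in SMC siKlf4, and at 0.223 ± 0.0751 and 0.0485 ± 0.0262 TPM in PDGFR-β+ cells (SD, n = 3), with no overlap between treatments in either cell type. Notum, which encodes a secreted enzyme that removes the lipid from Wnt proteins, was at 0.985 ± 0.267 TPM in PDGFR-β+ Scr and 0.0470 ± 0.0462 TPM in PDGFR-β+ siKlf4, without overlap, and at 1.49 ± 0.232 and 1.41 ± 0.346 TPM in SMCs, where it overlapped. Both genes were named after their values were seen.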
